A study of Bos taurus with 12 samples.

Results

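The 10 genes described here were grouped under sphingomyelin and sphingosine 1-phosphate turnover and read in the bovine endometrium. They include SMPD1, the acid sphingomyelinase, and SMPDL3B and SMPDL3A, which are listed for their likeness to it in sequence. The others are the acid ceramidase ASAH1, the sphingosine kinases SPHK1 and SPHK2, the lyase SGPL1 and the receptors S1PR1, S1PR2 and S1PR3. All 10 were found by their symbols in the annotation of the custom Agilent array used by the study, which names 17391 genes. Each had 1 transcript there. The members were selected on the OF minus YF difference of these arrays, as the list was built around SMPDL3B and SMPDL3A, known from them to be lower in old females (OF) than in young females (YF), and every OF minus YF value of the 10 genes is given as a description and without a test.

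Endometrial biopsies had been taken on Day 15 of a synchronized estrous cycle from 4 OF, aged 13 to 14 years, and 4 YF, aged 4 to 5 years, with 1 array per animal. A further 4 arrays came from contemporary cows. Their age, their parity and whether they were clones are not given in the sources used here, and cow 1111 is shown apart because its label states that the authors left it out. Per the paper, no OF had calved and each YF had calved once, and both groups were clones of a single donor cow. Age and parity therefore cannot be told apart, and the spread among OF and YF is that of animals sharing 1 genotype. The tissue was intercaruncular endometrium of the horn ipsilateral to the corpus luteum, with no treatment other than the synchronization of the cycle.

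Sphingomyelinases release ceramide from sphingomyelin, ceramidases convert ceramide to sphingosine, and sphingosine kinases phosphorylate sphingosine to sphingosine 1-phosphate. This lipid can be cleaved by the lyase SGPL1, the exit of the pathway, or dephosphorylated. It can also be exported to act on G protein-coupled receptors that regulate blood vessels and the traffic of lymphocytes. In the mouse uterus, sphingosine kinases are known to be required for normal decidual vessels. SMPDL3B and SMPDL3A resemble acid sphingomyelinase in sequence. SMPDL3B is anchored in the plasma membrane and is known as a negative regulator of Toll-like receptor signaling in macrophages, whereas SMPDL3A is a secreted enzyme known to cleave nucleotides.

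Each gene was read by 2 probe sequences of 60 bases. The probe of SMPDL3B that has a reading frame without a stop codon and both probes of SPHK1 are shown, because SMPDL3B had one of the widest ranges among these genes and SPHK1 one of the narrowest. They are written 5′ to 3′ on the strand of the transcript, with no base singled out.
SMPDL3B probe 1: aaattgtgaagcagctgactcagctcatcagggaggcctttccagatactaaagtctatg
SPHK1 probe 1: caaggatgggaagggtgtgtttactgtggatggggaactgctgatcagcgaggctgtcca
SPHK1 probe 2: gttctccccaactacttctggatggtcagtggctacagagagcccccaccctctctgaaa
The 2 probes of SMPDL3B shared no run of bases longer than 5, so they read separate stretches of the transcript. The 2 probes of SMPDL3A shared a run of 50 bases, those of ASAH1 a run of 51 and those of SMPD1 a run of 40, and are close to being the same measurement.

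Levels are log2 values relative to the 75th percentile of the same array, so that 0 is that percentile, and a level is compared between animals only and never between genes. The 75th percentile ranged from 968 to 1597 intensity units over the 12 arrays, each array had 71.6% to 74.9% of its probes well above background, and 0 probes were saturated. All 10 genes passed the filter on dim probes in all 3 comparisons. The arrays lay on 2 slides, which were scanned separately: slide 1 carried YF 1070, YF 1072, OF 0245 and cow 1111, and slide 2 the other 8 arrays. All 7 genes matched from a list of endometrial markers, among them FOXA2, PGR and ESR1, were well above background on the 12 arrays. OF 2258 stood apart, with the lowest epithelial and the highest smooth muscle marker level of all animals, and values without it are given beside the results it moves most.

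SMPDL3B (ENSBTAT00000017279, chromosome 2, 125983558 to 126015376 in UMD3.1) was highest in YF, with a mean level of -1.68 ± 0.87 (SD, n = 4), and lower in OF at -2.90 ± 1.496 (SD, n = 4). Its level was -2.02 in YF 1069, -0.79 in YF 1070, -1.19 in YF 1072 and -2.73 in YF 1127. In the OF it was -2.26 in 0233, -2.99 in 0234, -1.41 in 0245 and -4.92 in 2258. Only 0234 and 2258 lay below every YF, and OF 0245 lay above 2 of the YF, so the groups overlapped. The log2 difference of -1.21, a ratio of 0.431, was about the size of the spread within the groups, whose pooled SD was 1.22. Without OF 2258 it was -0.54. Per the paper, RT-qPCR on a larger set of OF and YF, which included these animals, also gave significantly lower SMPDL3B in OF (Mann-Whitney test).

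Both probes of SMPDL3B gave this picture, with log2 differences between OF and YF of -1.18 for probe 1 and -1.25 for probe 2. Probe 1 was well above background on 11 of the 12 arrays, the exception being that of OF 2258. Its values in the other animals ran from -5.85 in cow 1068 to -2.84 in YF 1070, and those of probe 2 from -2.13 to 1.26 in the same 2 animals. The order of the animals was thus alike at its ends for both probes.

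**Figure D1:**
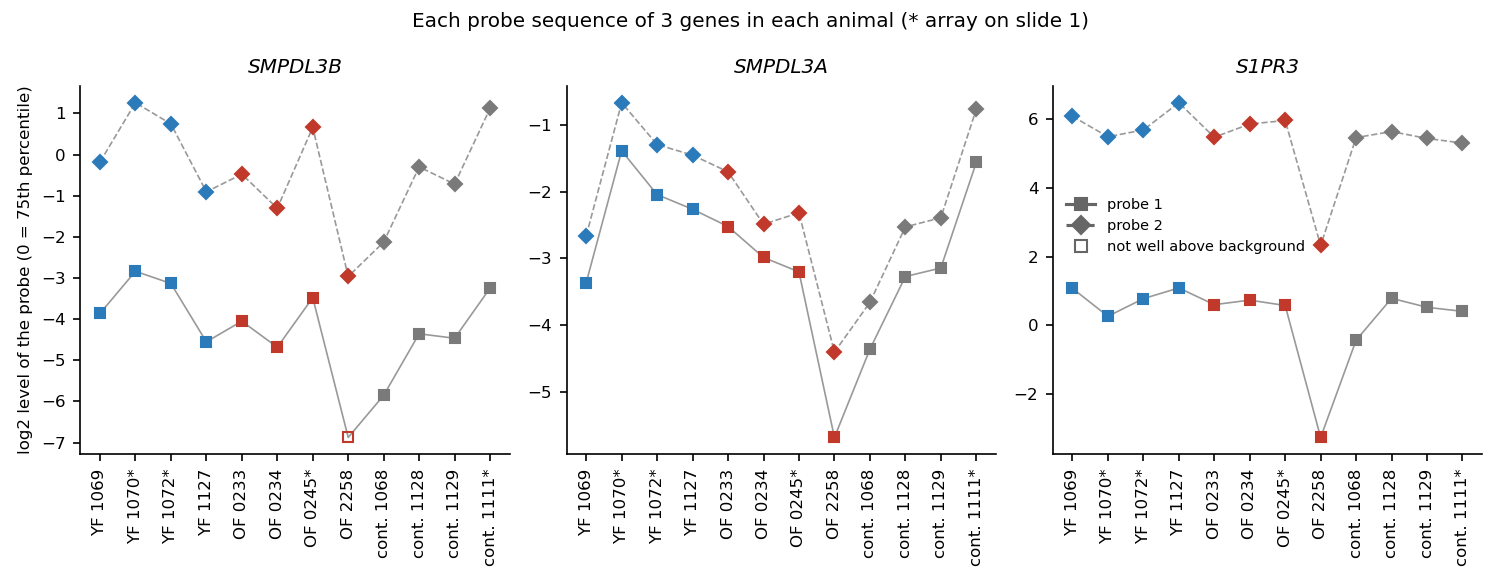
Log2 level of each probe sequence of SMPDL3B, SMPDL3A and S1PR3 in each of the 12 animals (vertical axes, 0 is the 75th percentile of the array; horizontal axis, animals; * marks slide 1; blue YF, red OF, grey contemporary; open symbol, not well above background). Both probes of each gene moved together, and OF 2258 was lowest for all 6 probes.

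The level of SMPDL3B also followed the slide. The 4 arrays of slide 1 had levels from -1.41 to -0.79 and the 8 arrays of slide 2 levels from -4.92 to -2.02, so that every array of slide 1 lay above every array of slide 2. This held for 0.927% of the 19633 transcripts compared between the slides in that direction and for 0.402% in the other, and it was looked for after the values had been seen. The mean was -1.11 on slide 1 and -2.98 on slide 2. Within YF, the 2 animals on slide 1 were higher by 1.38 than the 2 on slide 2. Because slide 1 carried 2 of the 4 YF and 1 of the 4 OF, the slide was also taken as a block, which gave a log2 difference of -0.80 between OF and YF. On slide 2 alone, with 3 OF and 2 YF, the difference was -1.02, and without OF 2258 it was -0.25.

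In the contemporary cows, SMPDL3B was at -3.99 in 1068, -2.33 in 1128 and -2.59 in 1129, a mean of -2.97 ± 0.89 (SD, n = 3). The mean was 1.29 below that of YF, a ratio of 0.410, with 1 of 3 cows below every YF, and -0.07 from that of OF. The difference from OF was -0.75 without OF 2258 and 0.42 within slide 2. All 3 arrays were on slide 2, and within that slide the contemporary minus YF difference was -0.59. Cow 1111, on slide 1, was at -1.06, among the levels of YF 1070 and YF 1072. The order of the group means was therefore YF, OF and contemporary cows, and the difference between the last 2 was smaller than the SD of either group. These values share the YF and OF arrays on which the gene was chosen and were not tested.

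SMPDL3A (ENSBTAT00000028765, chromosome 9, 28811578 to 28828968) had a profile close to that of SMPDL3B. Its level was -3.01 in YF 1069, -1.03 in YF 1070, -1.67 in YF 1072 and -1.86 in YF 1127. In the OF it was -2.11 in 0233, -2.74 in 0234, -2.76 in 0245 and -5.04 in 2258. Only OF 2258 lay below every YF, and YF 1069 was lower than 3 of the 4 OF. The mean was -1.89 ± 0.82 in YF and -3.16 ± 1.29 in OF (SD, n = 4 each), and the log2 difference of -1.27, a ratio of 0.415, exceeded the pooled SD of 1.08. It was -0.64 without OF 2258, -1.05 with the slide as a block and 0.01 on slide 2 without OF 2258, so that its direction was not kept there.

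Contemporary cows had SMPDL3A at -4.01 in 1068, -2.90 in 1128 and -2.77 in 1129, whereas cow 1111 was at -1.17. Their mean of -3.22 was 1.33 below YF and -0.06 from OF, and the difference from OF was -0.69 without OF 2258. Within slide 2 the difference from YF was -0.79. As for SMPDL3B, OF 2258 and cow 1068 were the 2 lowest animals and YF 1070 the highest. OF 0245, one of the highest animals for SMPDL3B, was not so for SMPDL3A, and the slides overlapped for this gene.

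The fold change rank ordering statistics (FCROS) used by the study, coded again here on the same values, set the limits that put these genes forward. FCROS ranks the ratios between single animals of the groups, and a gene is called lower at an f-value of at most 0.025 and a ratio of arithmetic means of at most 0.667. As coded here, it called 2.06% of all 26323 transcripts lower in OF. The study reported fewer calls at these limits, so the shares given here are not the study's. SMPDL3A was inside with a ratio of 0.465 and an f-value of 0.00403, and SMPDL3B with 0.526 and 0.00816. S1PR3 came nearest from outside, with a ratio of 0.669 and an f-value of 0.0558. Without OF 2258, SMPDL3A stayed inside with a ratio of 0.587, and SMPDL3B fell just outside with a ratio of 0.670 and an f-value of 0.0284. As the genes were chosen for these calls, nothing is read from their number.

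**Figure D2:**
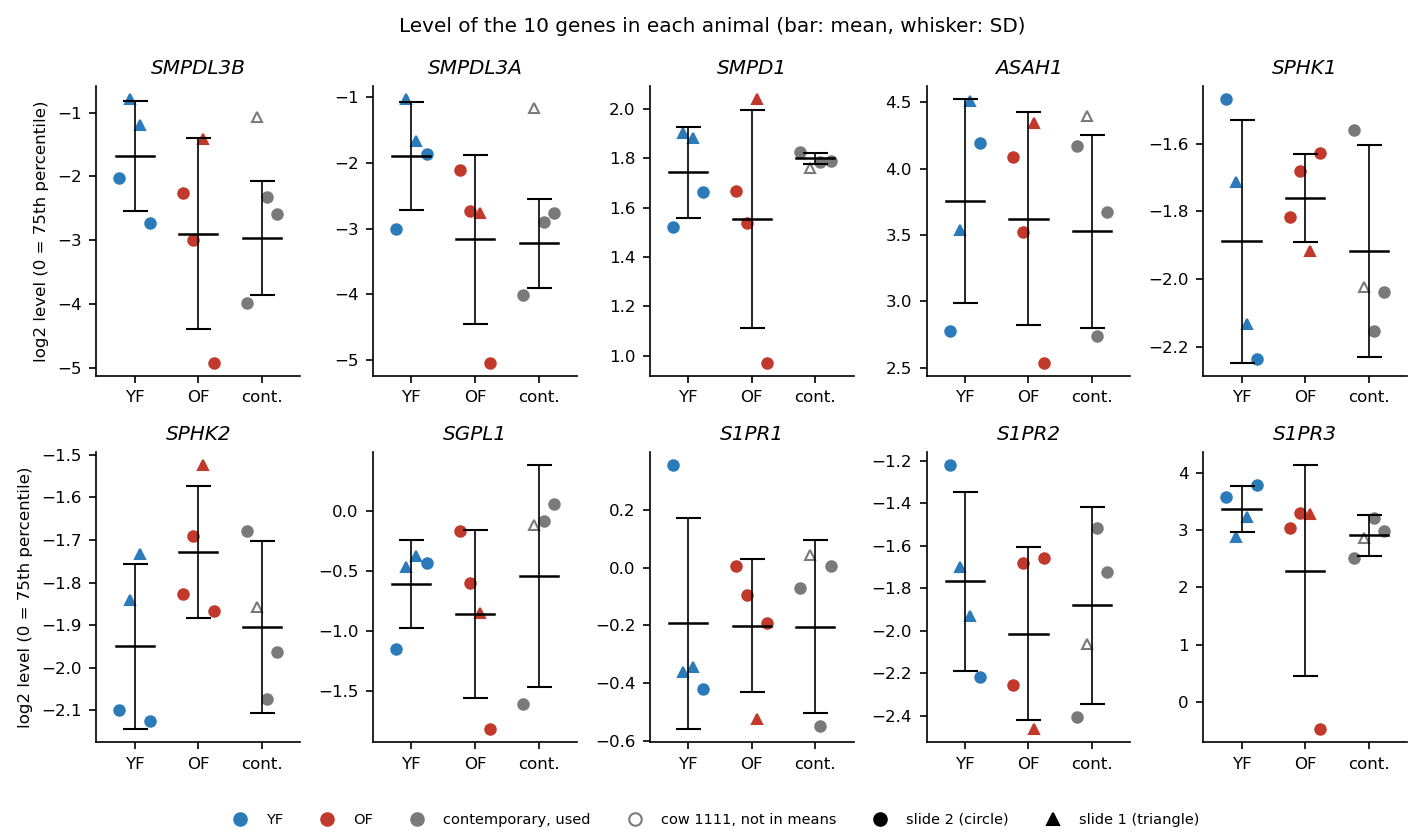
Log2 level of the 10 genes in each animal of the 3 groups (vertical axes, 0 is the 75th percentile of the array, a separate scale for each gene; horizontal axis, groups; triangles slide 1, circles slide 2; bars, group mean; whiskers, SD; open symbol, cow 1111, not in the mean). The groups overlapped for all 10 genes, and OF 2258 lay far below the other OF for S1PR3.

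Among the enzymes that make and break down ceramide, differences between the groups were small beside the spread. SMPD1 (ENSBTAT00000020758, chromosome 15, 47267703 to 47272165), the lysosomal sphingomyelinase, was at 1.52, 1.90, 1.88 and 1.66 in YF 1069, 1070, 1072 and 1127. It was at 1.67, 1.54, 2.04 and 0.97 in OF 0233, 0234, 0245 and 2258. OF 2258 was the lowest and OF 0245 the highest of all animals, so the OF spanned the range of the YF. The mean was 1.74 ± 0.18 in YF and 1.55 ± 0.44 in OF, a log2 difference of -0.19, and it was 0.01 without OF 2258. The 3 contemporary cows were nearly equal to each other, at 1.80 ± 0.02 (SD, n = 3).

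ASAH1 (ENSBTAT00000014960, chromosome 27, 18277522 to 18309256), which encodes the lysosomal ceramidase, varied more between animals. It ranged from 2.78 in YF 1069 to 4.51 in YF 1072, and from 2.54 in OF 2258 to 4.35 in OF 0245. The 3 lowest animals, OF 2258, cow 1128 at 2.74 and YF 1069, came from 3 different groups. The OF minus YF difference of -0.13 was far within the pooled SD of 0.78, and it changed sign to 0.23 without OF 2258.

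The 2 sphingosine kinases varied little. SPHK1 (ENSBTAT00000011212, chromosome 19, 55978951 to 55981068) was at -1.89 ± 0.36 in YF, -1.76 ± 0.13 in OF and -1.92 ± 0.31 in contemporary cows. SPHK2 (ENSBTAT00000013019, chromosome 18, 55714370 to 55721629) was at -2.10 in YF 1069, -1.84 in YF 1070, -1.73 in YF 1072 and -2.13 in YF 1127. Its OF values were -1.83 in 0233, -1.69 in 0234, -1.52 in 0245 and -1.87 in 2258. Of the OF, 2 lay above every YF and the other 2 among them. The difference of 0.22 was larger than the pooled SD of 0.18, small as it is (a ratio of 1.17), and it lay between 0.15 and 0.35 under all alternatives.

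SGPL1 (ENSBTAT00000047413, chromosome 28, 27133426 to 27185945), the lyase that ends the pathway, was at -0.61 ± 0.37 in YF, -0.86 ± 0.70 in OF and -0.54 ± 0.93 in contemporary cows. Its 2 lowest animals were those that were lowest for SMPDL3B and SMPDL3A, OF 2258 at -1.82 and cow 1068 at -1.61. YF 1069 followed at -1.16. The OF minus YF difference of -0.25 was 0.07 without OF 2258.

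Of the receptors, S1PR3 (ENSBTAT00000015111, chromosome 8, 90649983 to 90663196) had the largest difference between OF and YF, and it rested on 1 animal. Its level was 3.58, 2.88, 3.24 and 3.79 in YF 1069, 1070, 1072 and 1127. OF 0233 had 3.04, OF 0234 had 3.30 and OF 0245 had 3.27, whereas OF 2258 had -0.47. The first 3 OF lay inside the range of the YF. The mean of OF was 2.29 ± 1.84 against 3.37 ± 0.40 in YF (SD, n = 4 each), a difference of -1.08 that fell to -0.17 without OF 2258. Both probes showed the low value in this animal, at -3.26 for probe 1 and 2.33 for probe 2, against at least 0.27 and 5.48 in the other OF and YF, and both were well above background there.

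S1PR1 (ENSBTAT00000007861, chromosome 3, 42184097 to 42188752), the receptor best known from endothelium and lymphocytes, had means of -0.19 in YF, -0.20 in OF and -0.20 in contemporary cows. The differences between these 3 means were far smaller than the SD of any group, which ranged from 0.23 to 0.36. YF 1069 was the highest of all animals at 0.35, and the other YF were between -0.42 and -0.34. S1PR2 (ENSBTAT00000003550, chromosome 7, 15974816 to 15982578) was at -1.77 ± 0.42 in YF, -2.02 ± 0.41 in OF and -1.88 ± 0.46 in contemporary cows. OF 0233 and OF 0245 lay below every YF for S1PR2, and the difference of -0.25 was within the pooled SD of 0.41.

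Taking the 10 genes side by side, 8 were lower and 2 higher in OF than in YF, with a median log2 difference of -0.22. Over all 19755 transcripts tested, the median was 0.01 and 10208 were higher. SMPDL3B and SMPDL3A, 2 of the 8, had been chosen because they were lower in OF. Without OF 2258 the 10 genes were 5 lower and 5 higher, with a median of -0.0030, against 0.01 over all transcripts. For 8 of the 10 the difference was smaller than the pooled SD. The exceptions were SMPDL3A and SPHK2. No gene had its OF and YF apart, which was the case for 1.53% of all transcripts tested. In limma 0 of all transcripts passed an adjusted p of 0.05 in this comparison, and 2.42% had an unadjusted p of 0.05.

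The 8 genes other than SMPDL3B and SMPDL3A were tested between the contemporary cows and each of the other groups with limma, Benjamini-Hochberg adjusted over all transcripts. None of the 8 passed an adjusted p of 0.05 or an unadjusted p of 0.05 in either comparison, where 0% of all transcripts passed the first and 3.03% (against YF) and 4.57% (against OF) the second. The smallest adjusted p of the 8 was 0.9999 against YF and 0.949 against OF. The intervals say how much remains possible. For SPHK1 the contemporary minus YF difference was -0.03 with a 95% interval from -0.60 to 0.54, and for ASAH1 -0.23 with an interval from -1.34 to 0.88. For S1PR3 it was -0.46 (95% interval -1.09 to 0.16), and the difference from OF was 0.62 (95% interval -1.52 to 2.76), which turned to -0.30 without OF 2258. Contemporary cows overlapped YF and OF for all 10 genes, whereas groups were apart for 3.83% and 5.79% of all transcripts tested.

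**Figure D3:**
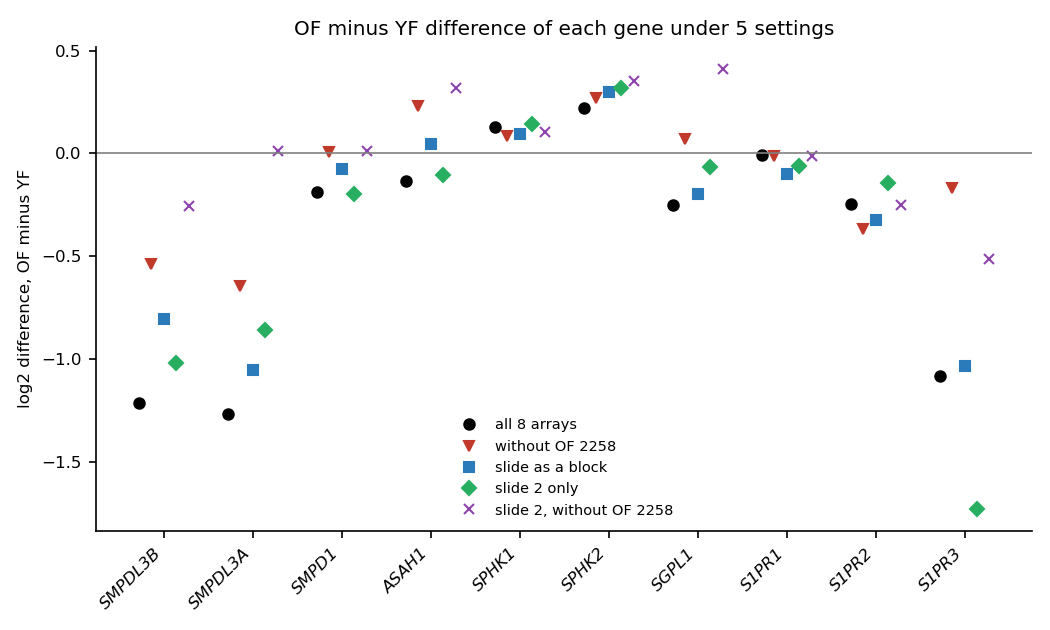
Log2 difference between OF and YF (vertical axis) of each of the 10 genes (horizontal axis) with all 8 arrays, without OF 2258, with the slide as a block, on slide 2 alone and on slide 2 without OF 2258; the line is 0. SMPDL3B moved from -1.21 with all arrays to -0.25 in the last setting, SMPDL3A from -1.27 to 0.01 and S1PR3 from -1.08 to -0.17 without OF 2258.

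OF 2258 was the lowest of the 12 animals for SMPDL3B, SMPDL3A, SMPD1, ASAH1, SGPL1 and S1PR3. In a biopsy, fewer cells of a type and less RNA per cell cannot be told apart, so marker lists were read in the same arrays as the mean deviation of their genes from the mean over the 11 arrays used. Of the smooth muscle list, 11 of 12 genes were matched and 10 were well above background on all arrays. Its level was 4.11 in OF 2258 and 2.46 in OF 0234, and between -1.48 and 0.07 in all other animals. Of the epithelial list, 11 of 12 genes were matched and 10 were well above background on all arrays. Its level was -1.84 in OF 2258, -1.12 in YF 1069 and between -0.22 and 0.89 in the other animals. OF 0234, high for smooth muscle, was at -2.99 for SMPDL3B and 3.30 for S1PR3. Cow 1068, the second lowest animal for SMPDL3B, SMPDL3A and SGPL1, was at -0.22 for epithelium and -0.45 for smooth muscle. YF 1069, low for epithelium, was the lowest YF for SMPDL3A, SMPD1, ASAH1 and SGPL1 and the highest for S1PR1, S1PR2 and SPHK1. On slide 1 the epithelial level ran from 0.36 in YF 1072 to 0.89 in OF 0245. On slide 2 it ran from -1.84 in OF 2258 to 0.58 in OF 0233. The part of these cell types in the differences between groups or between slides was not tested.

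**Figure D4:**
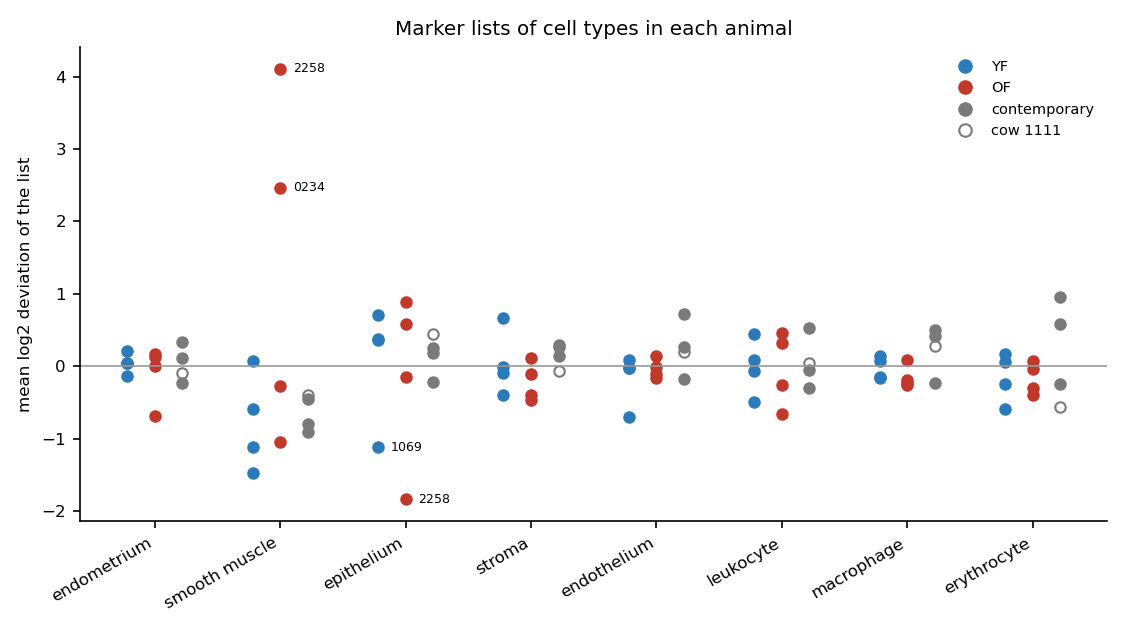
Mean log2 deviation of 8 marker lists (horizontal axis) in each animal (vertical axis; 0 is the mean over the 11 arrays used; blue YF, red OF, grey contemporary, open cow 1111). OF 2258 lay at 4.11 for smooth muscle and -1.84 for epithelium, and the stromal, endothelial, leukocyte, macrophage and erythrocyte lists stayed between -0.70 and 0.95.

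The stromal list was at 0.11 in OF 2258, the endothelial list at -0.10, the leukocyte list at -0.66 and the macrophage list at -0.19, each inside or close to the range of the other animals. SMPDL3B is known from macrophages, and that list ranged from -0.25 to 0.09 in OF, from -0.17 to 0.14 in YF and from -0.23 to 0.50 in the 3 contemporary cows. Its gene CD163 was well above background on 1 array only. The endometrial list was at -0.69 in OF 2258 and between -0.23 and 0.34 in the others. KRT18 is on both this list and the epithelial list.

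The transcripts whose levels ran most like SMPDL3B over the 11 arrays were sought among 15405 with a gene symbol that were well above background on all of them. The 5 highest were CFTR (Pearson's r = 0.97), the chloride channel of apical epithelial membranes, CREG2 (0.97), PROM2 (0.96), a prominin of plasma membrane protrusions, CKMT1 (0.96), a mitochondrial creatine kinase, and GDF5 (0.95), a growth factor of the bone morphogenetic protein family. The 3 lowest were CHN1 (-0.92), P4HA1 (-0.92), a prolyl hydroxylase of collagen, and STK38L (-0.91), a protein kinase. These r describe 11 arrays that share groups, slides and OF 2258, and carry no test. When deviations from the group means were used, CFTR, CREG2 and PROM2 remained among the 5 highest, and without OF 2258 CFTR and CREG2 did. Like SMPDL3B, CFTR, CREG2 and PROM2 had every array of slide 1 above every array of slide 2.

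CFTR followed SMPDL3B from animal to animal. It was at 2.21 in YF 1070 and 1.48 in YF 1072 but 0.74 in YF 1069 and -0.54 in YF 1127. In the OF it was at 1.38 in 0245, 0.55 in 0233, -0.996 in 0234 and -4.52 in 2258, the same order as for SMPDL3B in both groups. Among the other 9 genes of the list SMPDL3A was the most alike, with r = 0.87 and rank 58 of 15405. SMPD1 followed with 0.74 and S1PR3 with 0.69, but without OF 2258 these were 0.44 and 0.21, against 0.75 for SMPDL3A. SPHK1 had the lowest r, at -0.32.

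The rest of the pathway was read from 62 other genes in 9 lists, of which 59 were matched on the array and SMPD5, ASAH2 and B4GALNT1 were not matched by symbol. Of the 53 tested between OF and YF, 21 were higher and 32 lower, with a median log2 difference of -0.04. Without OF 2258, 27 were higher and 26 lower, with a median of 0.00091. None passed an adjusted or an unadjusted p of 0.05 in limma, and none had the groups apart. Of all transcripts tested, 2.42% had an unadjusted p of 0.05 and 1.53% had the groups apart. FCROS as coded here called SMPD3 higher and ST8SIA1 and S1PR5 lower, 3 of 59 genes, where it called 4.94% of all transcripts. From the rest of the pathway, the study's list of differentially expressed genes holds SMPD3, S1PR5, SGMS2, ASAH2 and CERKL. Of these, SGMS2 was not called by FCROS as coded here, and ASAH2 could not be read because no symbol matched. The list of lysosomal glycosphingolipid breakdown held 11 genes, among them GBA2, which is not lysosomal. Their median was -0.15, with 8 lower, and without OF 2258 it was -0.02, with 6 lower. The 14 genes of de novo ceramide synthesis had a median of -0.02, with 8 lower.

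SMPD3, the neutral sphingomyelinase of the plasma membrane, differed from SMPDL3B in that its mean was higher in OF. OF 0233 was at -1.69, OF 0234 at -2.17 and OF 0245 at -1.21, all above the highest YF at -2.32, but at -4.67 in OF 2258, the lowest of all animals. Its difference of 0.61 was 1.36 without OF 2258. SGMS2, a sphingomyelin synthase, was higher by 0.72 in OF, with OF 2258 highest at -1.17, and the difference was 0.41 without that animal.

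The other genes named for the size of their OF minus YF difference were lower in OF. ST8SIA1, a sialyltransferase of ganglioside synthesis, was at -0.76, GALC, the lysosomal galactosylceramidase, at -0.55, and PLPP1, a phosphatase of lipid phosphates at the cell surface, at -0.55. Without OF 2258 these differences were -0.37, -0.23 and -0.70. One of the 2 probes of GALC was dim on several arrays. CERKL, which resembles ceramide kinase, was between -4.46 and -2.11 in the OF and YF other than OF 2258 and YF 1072. In those it was at -8.47 and -6.43, with none of its probes well above background, and it was therefore not tested between these groups. FCROS, which had no filter on dim probes, called it lower in OF. CERKL is on none of the pathway lists counted here. Its mean in contemporary cows was 2.10 above that of OF and 0.77 above that of YF, and no p is given for it.

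S1PR5, a receptor known from natural killer cells, was the only gene of the pathway lists with an unadjusted p of 0.05 in any comparison. It was at -2.76, -2.07 and -2.57 in contemporary cows 1068, 1128 and 1129 and between -4.63 and -3.20 in OF, so that every contemporary cow lay above every OF, as for 2.86% of all transcripts. The difference of 1.30 had an unadjusted p of 0.00731 and an adjusted p of 0.904 in limma, and it was 1.01 without OF 2258. The OF minus YF difference was -0.72, and -0.44 without OF 2258, with YF 1072 at -3.99 lower than 3 of the 4 OF. SPTLC2, a subunit of serine palmitoyltransferase, and MFSD2B, a transporter of sphingosine 1-phosphate, were also apart between contemporary cows and OF, at 0.40 and -0.32. CERK, the ceramide kinase, was apart between contemporary cows and YF at -0.34. None of these passed an unadjusted p of 0.05 in limma. In all, 3 of 51 genes (5.88%) were apart between contemporary cows and OF, against 5.79% of all transcripts. Between contemporary cows and YF it was 1 of 52 genes (1.92%), against 3.83% of all transcripts. For CERK and MFSD2B only 1 of the 2 probes was well above background on all arrays.

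**Figure D5:**
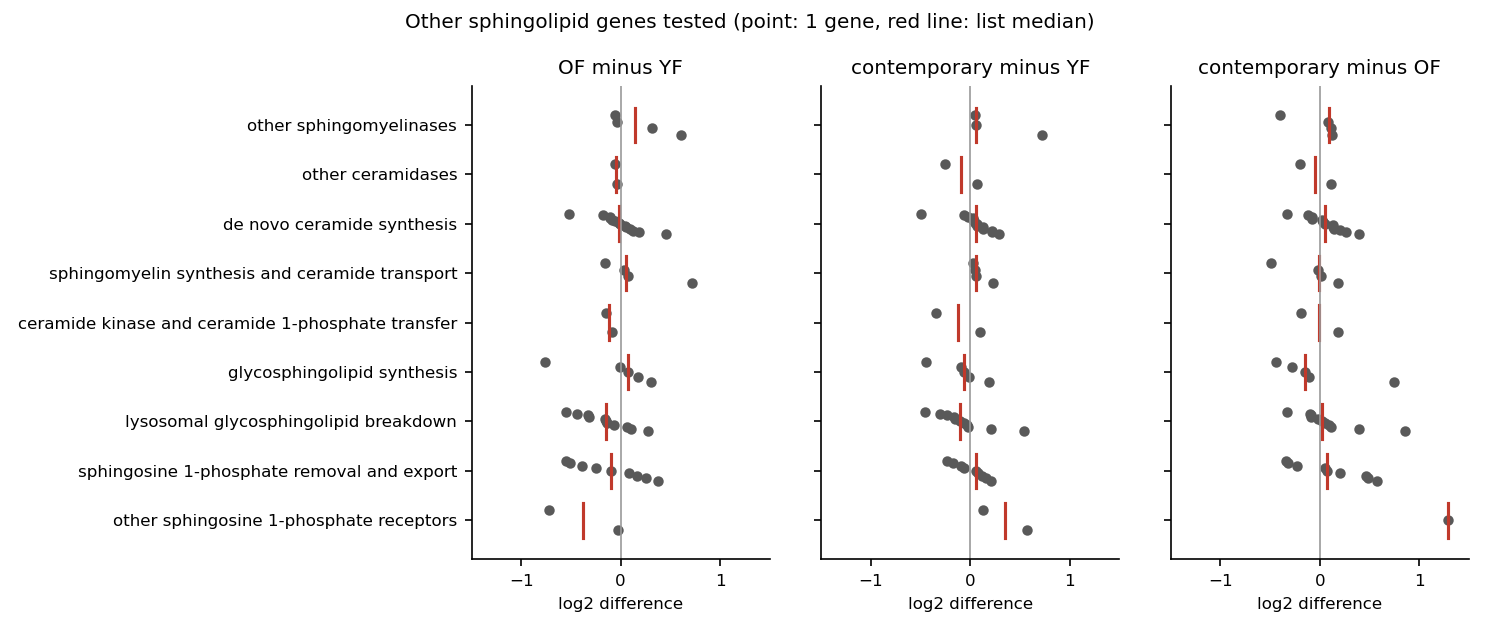
Log2 difference (horizontal axes) of the other sphingolipid genes tested in each of 9 lists (vertical axis) for OF minus YF, contemporary minus YF and contemporary minus OF; each point is 1 gene and the red line the median of the list. The differences between OF and YF ran from -0.76 to 0.72, and S1PR5 at 1.30 lay farthest from 0 in the last panel.

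Contemporary cows had 30 of 52 other sphingolipid genes higher than YF, with a median of 0.04, and 30 of 51 higher than OF, with a median of 0.05. Without OF 2258, 25 of the 51 were higher than OF, with a median of -0.02. None passed an adjusted p of 0.05 in limma in either comparison. At an unadjusted p of 0.05 in limma there were 0 of 52 genes against YF and 1 of 51 against OF. Of all transcripts tested, 3.03% and 4.57% reached it. The medians of all transcripts tested were -0.02 and -0.04.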

How the data were processed

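The authors hybridized Cy-3 labelled RNA of each animal to 1 array and deposited the output of Agilent Feature Extraction 10.7.3.1, in which each spot has a background-corrected intensity (gProcessedSignal), not normalized between arrays. From these deposited intensities, log2 values were computed here and the 75th percentile of the array was subtracted. The 1319 control spots and 66 probes flagged as outliers were left out, and probes were averaged per transcript. Positions are those of the array's annotation (UMD3.1).

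Groups were compared with limma 3.58.1 (R 4.3.3, two-sided, Benjamini-Hochberg, adjusted p of 0.05) on transcripts measured well above background by at least 1 probe in all animals of either group, only the arrays of the 2 groups entering a fit. FCROS was coded from its published description (16 ratios, trim of 0.25). Scripts were tested on simulated arrays. The replicate is the animal, and the number of arrays limits the precision.

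The 10 genes, the lists and the tests were chosen with earlier results of these data known. Named genes of the pathway are the 6 with the largest OF minus YF difference among those tested and those of the study's list of differentially expressed genes where matched. CERK, SPTLC2, MFSD2B and CD163 were named after their values were seen. Alternatives were quantile normalization, median centring, normexp, the brightest probe, no filter, the slide as a block, slide 2 only, all 3 groups in 1 fit, cow 1111 included and each animal left out. Averaging only probes well above background, leaving OF 2258 out of slide 2 and out of r, FCROS and the counts of higher and lower genes, and the comparison of the slides were added after the data were seen.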

Additional observations from a re-analysis of the deposited data

Results flagged for a closer look

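In 3 of the 20 groups of 4 animals looked at (10 genes, YF and OF), 1 animal lay far from the other 3 by Dixon's test at 95%. Chance gives about 1 in 20 when the groups are independent. These were not, as the genes were read in the same animals, so the count cannot be set against chance. For S1PR3, OF 2258 was at -0.47 and the nearest OF at 3.04, a gap of 0.932 of the range. For S1PR1, YF 1069 was at 0.35 and the nearest YF at -0.34, a gap of 0.899 of the range. For SGPL1, YF 1069 was at -1.16 and the nearest YF at -0.47, a gap of 0.884 of the range.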

How the results depend on the processing

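Over the 3 comparisons, 530 values of the 10 genes were recomputed, of which 75 changed sign, 14 of 180 for OF minus YF, and 4 moved by more than the pooled SD. SMPDL3B kept a negative OF minus YF difference in all 18 alternatives, from -1.71 to -0.54 when 1 animal was left out and at -0.75 with normexp, which also brought the contemporary minus YF difference from -1.29 to -0.92. With cow 1111 included that difference was -0.81. Its contemporary minus OF difference changed sign in 6 of 18 alternatives, to 0.42 within slide 2 and 0.40 with cow 1111. The count of transcripts called by limma stayed at 0 for OF minus YF in every alternative, whereas FCROS called 1300. It rose from 0 to 1 with quantile normalization, 2 with all 3 groups in 1 fit and 4 with cow 1111 for contemporary minus YF, and to 2 with cow 1111 for contemporary minus OF. When 1 animal was left out the counts ranged from 0 to 1 in both of these. No gene of the pathway lists was called in any alternative. No paired analysis was possible because the animals share no replicate numbers between groups. With 3 or 4 arrays per group, only large differences could be measured.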
